A study of Mus musculus with 237 samples.

Results

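The 8 immediate-early genes (Fos, Fosb, Jun, Junb, Jund, Egr1, Atf3 and Ier2) and the 2 heat-shock genes Hspa1a and Hspa1b were followed across single skin cells of mouse embryos at E14.5. They are 10 of the 55335 genes in the count table and were picked by name, as genes known to respond when tissue is digested into single cells. The labels describe 237 cells of 10 C57BL/6N embryos carried by surrogate ICR mothers, 66 cells of 3 wild-type (WT) embryos and 171 of 7 Trp63 mutant (p63 knockout) embryos. The knockout was made by delivering Cas9 and a guide RNA to zygotes, so that each mutant embryo came from its own edited zygote. Each cell was sorted as negative for propidium iodide, CD45, TER119 and CD140a and given a library of its own with SMART-Seq HT, which covers whole transcripts and carries no molecular identifiers. Groups were prepared differently. WT skin was soaked in dispase, and the epidermis was lifted off and then treated with trypsin, whereas knockout fetuses went into trypsin directly. By the study's methods, cDNA was chosen by qPCR before sequencing, for Krt5 in WT and for Krt8 in knockout keratinocytes. The methods also report no significant amplification of Pdgfra, yet the labels still hold fibroblasts. Genotype, digestion and the gene screened for therefore cannot be told apart in these data.

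The count table names its columns (1 column per cell) by sequencing run. Only 16 columns could be tied to a labelled cell, all of embryo WT01, with 11 WT-KCB cells (keratinocytes of the basal layer), 1 WT-KCI cell (intermediate layer) and 4 WT-KCP cells. The labels call the WT-KCP cells K17 high, and the paper places them in the periderm. The authors assigned subtypes by hand from marker genes in these same data, so the keratins of these cells describe the labels and do not check them. Krt14 lay between 3498 and 9463 CPM (the count divided by the column's total and scaled to 1000000) in WT-KCB, the WT-KCI cell held 13862 CPM of Krt1, and Krt17 was at 1715 to 3901 CPM in WT-KCP against 4.37 to 612.8 in WT-KCB. Krt6a, another periderm keratin, was at most 0.6678 CPM in WT-KCP. Over all 237 columns, cells were placed by keratin and collagen levels into a basal state (Krt5 and Krt14 at 300 CPM or more, Krt8 under 100; 54 columns), a simple state (Krt8 and Krt18 at 100 or more, Krt5 and Krt14 under 100; 66 columns) and a mesenchymal state (Col1a1 and Col3a1 at 100 or more; 79 columns). One column met 2 rules and counts in both, and 39 met none. Of the 16 WT01 columns, 15 were basal, and the WT-KCI cell met no rule. No other column could be tied to an embryo or a genotype. A state is thus a set of cells and not a set of replicates, and every value by state is a description without a test. The labels hold 70 p63 KO fibroblast cells, all of embryo MU01, so that a mesenchymal level and the level of 1 embryo cannot be told apart either. Column totals ran from 2702464 to 19197937 counts, with a median of 6938984, and 6997 to 13340 genes had a count. No column repeated another.

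Immediate-early genes are switched on within minutes of a stimulus such as a growth factor, wounding or stress, without new protein synthesis, by factors that are already bound or quickly phosphorylated at their promoters. Fos and Jun family proteins pair into the AP-1 transcription factor, which in skin takes part in wound repair and keratinocyte differentiation. Heat-shock genes answer unfolded protein through the factor HSF1, and Hspa1a and Hspa1b encode the stress-inducible HSP70 chaperone. Enzymatic digestion of tissue is known to induce members of both groups, which is why they are read as a trace of handling as well as of the cell.

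Positions are those of GRCm38, the assembly of mm10, to which the reads were mapped. Fosb lies at chr7:19302696-19310051, Jun at chr4:95049034-95052222, Junb at chr8:84974484-84978718, Jund at chr8:70698949-70700616, Ier2 at chr8:84661331-84662852 and Atf3 at chr1:191170296-191218039. Jun, Jund and Ier2 have 1 exon each. Hspa1b (chr17:34956436-34959238) and Hspa1a (chr17:34969190-34972156) are neighbours on the minus strand with 9951 bases between them, and each is a gene of 1 exon. Their coding sequences are identical at 99.43% of 1926 aligned positions. The 250 bases before their RefSeq starts, a window at hand for 8 of the 10 genes, differ at 3 of 250 positions, since 247 are the same. They are shown with those of Fos (chr12:85473890-85477273, 4 exons, plus strand), because the Fos group and the HSP70 pair behave differently in the results that follow. All are written 5′ to 3′ on the strand of the gene (GRCm38.p6). Capitals mark TGACG, the core of a cAMP response element, and TATAAA in Fos, and GAANNTTC, a pair of heat-shock units, in the others.
Fos: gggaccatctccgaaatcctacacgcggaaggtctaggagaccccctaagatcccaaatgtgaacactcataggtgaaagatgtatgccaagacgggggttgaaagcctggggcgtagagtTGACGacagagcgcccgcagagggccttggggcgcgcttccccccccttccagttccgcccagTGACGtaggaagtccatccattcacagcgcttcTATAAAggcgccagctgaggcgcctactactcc
Hspa1a: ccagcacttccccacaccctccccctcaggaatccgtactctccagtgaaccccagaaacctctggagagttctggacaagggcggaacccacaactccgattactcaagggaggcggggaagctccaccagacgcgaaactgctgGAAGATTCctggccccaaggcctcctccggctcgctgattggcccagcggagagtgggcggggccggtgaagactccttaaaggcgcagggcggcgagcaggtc
Hspa1b: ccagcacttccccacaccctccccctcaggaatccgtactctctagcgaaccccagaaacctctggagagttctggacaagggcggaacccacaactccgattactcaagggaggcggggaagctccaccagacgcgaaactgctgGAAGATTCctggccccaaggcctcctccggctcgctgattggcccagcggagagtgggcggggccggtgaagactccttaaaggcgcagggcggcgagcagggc

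On both strands, GAANNTTC was found in Hspa1a, Hspa1b and Jun and in 6.69% of all 32851 promoters of that length, and TGACG in Fos, Fosb, Junb and Atf3 and in 17.8% of them. CCAAT was in Jun, Junb, Hspa1a and Hspa1b (33.8% of all) and TATAAA in Fos alone among the 8 (12.4%). None of the 8 held the full GAANNTTCNNGAA, TGACGTCA, the AP-1 site TGACTCA or the CArG box, which 0.466%, 1.55%, 4.46% and 1.47% of promoters hold. The windows lie before RefSeq starts, which need not be the ends of the gene spans given above. The Atf3 window (chr1:191183334-191183583) lies inside the Atf3 span, and the Jund window (chr8:70697489-70697738) does not adjoin the Jund span. Matches in these 2 windows, or their absence, do not describe the sequence next to those spans. All are matches of letters in a short window and say nothing of binding.

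The near identity of the HSP70 pair bears on how they were counted. Of the values above 0, 87.3% carried a fraction for Hspa1a and 63.5% for Hspa1b, against 0.422% for Fos. Counts take fractions where a read is divided between the places it maps to, but the setting used was not given in the sources used here. Of the 150-base windows of their transcripts, 46% of Hspa1a and 40.5% of Hspa1b also occur in another gene, so the split between the pair is uncertain and their sum is given beside them. Jun (33.3%), Jund (32.1%) and Junb (22.9%) also carried fractions. Their exons overlap antisense genes (Junos by 232 bases, Gm11175 by 877 and Prdx2 by 173), as those of Hspa1a overlap Gm20481 by 564 bases. Reads of each gene and its antisense partner cannot be told apart here, because strand use in counting was not given in the sources used here. Fos, Fosb, Egr1, Atf3 and Ier2 share no window and no exon with another gene.

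The plot of the 16 WT01 cells shows how far cells of 1 embryo, digested together, differed. Fos ranged from 1.017 to 1999 CPM over the 11 WT-KCB cells, with a median of 137.1, and the 4 WT-KCP cells held 1.576, 24.51, 36.28 and 614.1 CPM. The ranges of the groups overlapped, with the highest cell in WT-KCB, and 6 of 11 WT-KCB cells and 1 of 4 WT-KCP cells reached 100 CPM. Fosb, of the same family, ran from 0 to 150.5 CPM in WT-KCB (median 15.68) and stood at 0, 0.2226, 0.285 and 22.45 in WT-KCP. The same WT-KCP cell was highest for Fos and for Fosb.

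**Figure D1:**
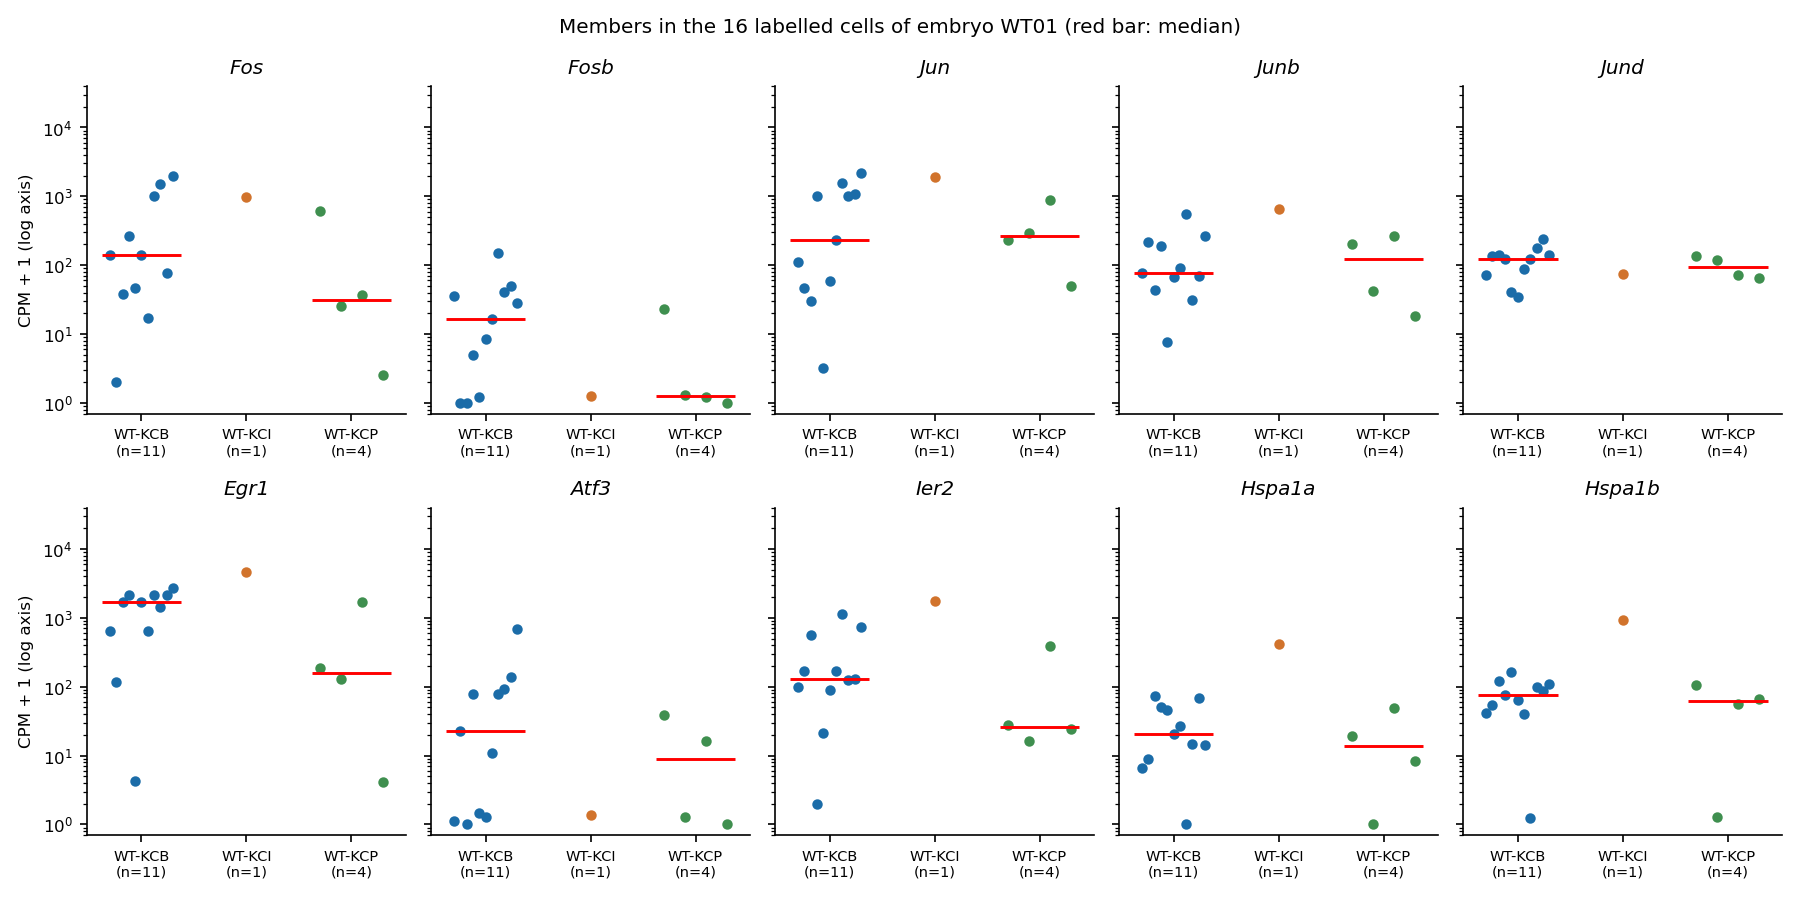
CPM + 1 (log axis) of each member in the 16 labelled cells of embryo WT01, 1 point per cell, grouped by label; red bars are medians of groups of more than 1 cell. Every member overlaps between WT-KCB and WT-KCP. The WT-KCI cell stands above all 11 WT-KCB cells for Junb, Egr1, Ier2, Hspa1a and Hspa1b, and the share of all genes that do so was not taken.

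Among the Jun partners, Jun ran from 2.204 to 2179 CPM in WT-KCB with a median of 228.5, and stood at 49.32, 227.3, 295.3 and 890.6 in WT-KCP. Junb was at 6.727 to 547.5 CPM in WT-KCB (median 75.98) and at 17.18, 40.61, 200.8 and 260.8 in WT-KCP. Jund, which many cells keep on without a stimulus, was the least variable member. It varied from 33.33 to 235.3 CPM in WT-KCB, a ratio of 7.06 between the highest and the lowest cell, against 988.8 for Jun and 1966 for Fos. The 4 WT-KCP cells held 64.29, 69.89, 116.6 and 133.7 CPM of Jund.

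Egr1, a zinc-finger factor driven by growth factor signals, ranged from 3.248 to 2667 CPM in WT-KCB with a median of 1687, and 10 of 11 cells reached 100 CPM. In WT-KCP it stood at 3.151, 127.4, 187.2 and 1669 CPM. Summed over cells, Egr1 came to 1378 CPM in WT-KCB (exact 95% Poisson interval 1370.4 to 1386) and 588.6 CPM in WT-KCP (579.8 to 597.4). These intervals cover counting error only, since reads copied by PCR do not stand for separate molecules, and they are far narrower than the spread between cells. Atf3, a stress-induced factor of the ATF family, lay between 0 and 682.8 CPM in WT-KCB (median 21.86) and at 0, 0.285, 15.36 and 37.76 in WT-KCP. Ier2, a small nuclear protein of the immediate-early class, ranged from 0.949 to 1136 CPM in WT-KCB (median 130.3) and was at 15.39, 23.01, 26.54 and 384.2 in WT-KCP.

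For the heat-shock pair, the ranges of both labels overlapped. Hspa1a was at 0 to 71.98 CPM in WT-KCB (median 19.8) and at 0, 7.406, 18.37 and 48.52 in WT-KCP, and Hspa1b at 0.2543 to 161.7 (median 75.68) and at 0.285, 55.42, 64.61 and 105.3. In each label, 1 cell had almost none of either gene. That WT-KCB cell held 0.2543 CPM of the summed pair and yet had the highest Fosb, Junb and Ier2 of its group, with Fos at 1005 CPM. A cell with little Fos could conversely hold the pair. The WT-KCB cell with the lowest Fos, 1.017 CPM, had a summed level of 61.27.

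The single WT-KCI cell differed from the WT-KCB cells in several members. Its Hspa1a was 418.1 CPM and its Hspa1b 917.8 CPM, 5.81 and 5.68 times the highest WT-KCB cell. Egr1 (4563 CPM), Junb (653.8) and Ier2 (1774) were also above all 11 WT-KCB cells. Fos, at 962.8, and Jun, at 1923, lay inside their range. Fosb and Atf3, in contrast, were at 0.2426 and 0.3639 CPM, which rest on 2 and 3 counts. With 1 cell there is no spread to set these values against. The share of all genes for which this cell lies above all 11 WT-KCB cells was not taken. Whether the members stand out in it is therefore not known.

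Comparing mean levels, 5 of the 10 members were at least 2-fold lower in WT-KCP than in WT-KCB and none was higher, while over all 14773 genes with a mean of 1 CPM or more, 21.2% were at least 2-fold lower and 15.4% higher. The log2 ratios of mean CPM + 1 were -2.81 for Atf3, -2.20 for Fosb, -1.48 for Fos, -1.48 for Egr1 and -1.38 for Ier2, and lay between -0.87 and -0.16 for the other 5. The median over all genes was -0.08. Single cells decided some of these. Fos came to -0.93 without WT-KCB cell 11 and Ier2 to -0.90 without WT-KCB cell 8, both inside 2-fold. Without WT-KCP cell 1, the ratios were -4.45 for Fos, -4.72 for Fosb and -4.02 for Atf3, and without WT-KCP cell 3 they were -3.70 for Egr1, -3.70 for Ier2 and -0.75 for Junb. Atf3 came to -1.57 without WT-KCB cell 11 and Fosb to -1.48 without WT-KCB cell 8, whereas Jun came to -1.80 and Hspa1a to -1.65 without WT-KCP cell 3, and Jun reached 2-fold without WT-KCB cell 5. Junb, at -0.16, changed sign without WT-KCB cell 8 and without WT-KCP cell 2 or 4, up to 0.30. By the log2 ratio of median CPM + 1, Jun (0.19) and Junb (0.66) were higher in WT-KCP, and the other members were lower. All 10 members overlapped between the labels cell by cell, and with 1 embryo the difference has no replicate check.

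Levels over all columns by state are shown in the plot of members by state. Fos ran from 1.017 to 16441 CPM in basal columns (median 591.8), from 3.218 to 11247 in simple columns (median 2989) and from 1.85 to 11487 in mesenchymal columns (median 554.1). The simple columns were thus mostly high, with 45 of 66 at 1000 CPM or more, against 25 of 54 basal and 30 of 79 mesenchymal columns. No column of any state lacked Fos reads.

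**Figure D2:**
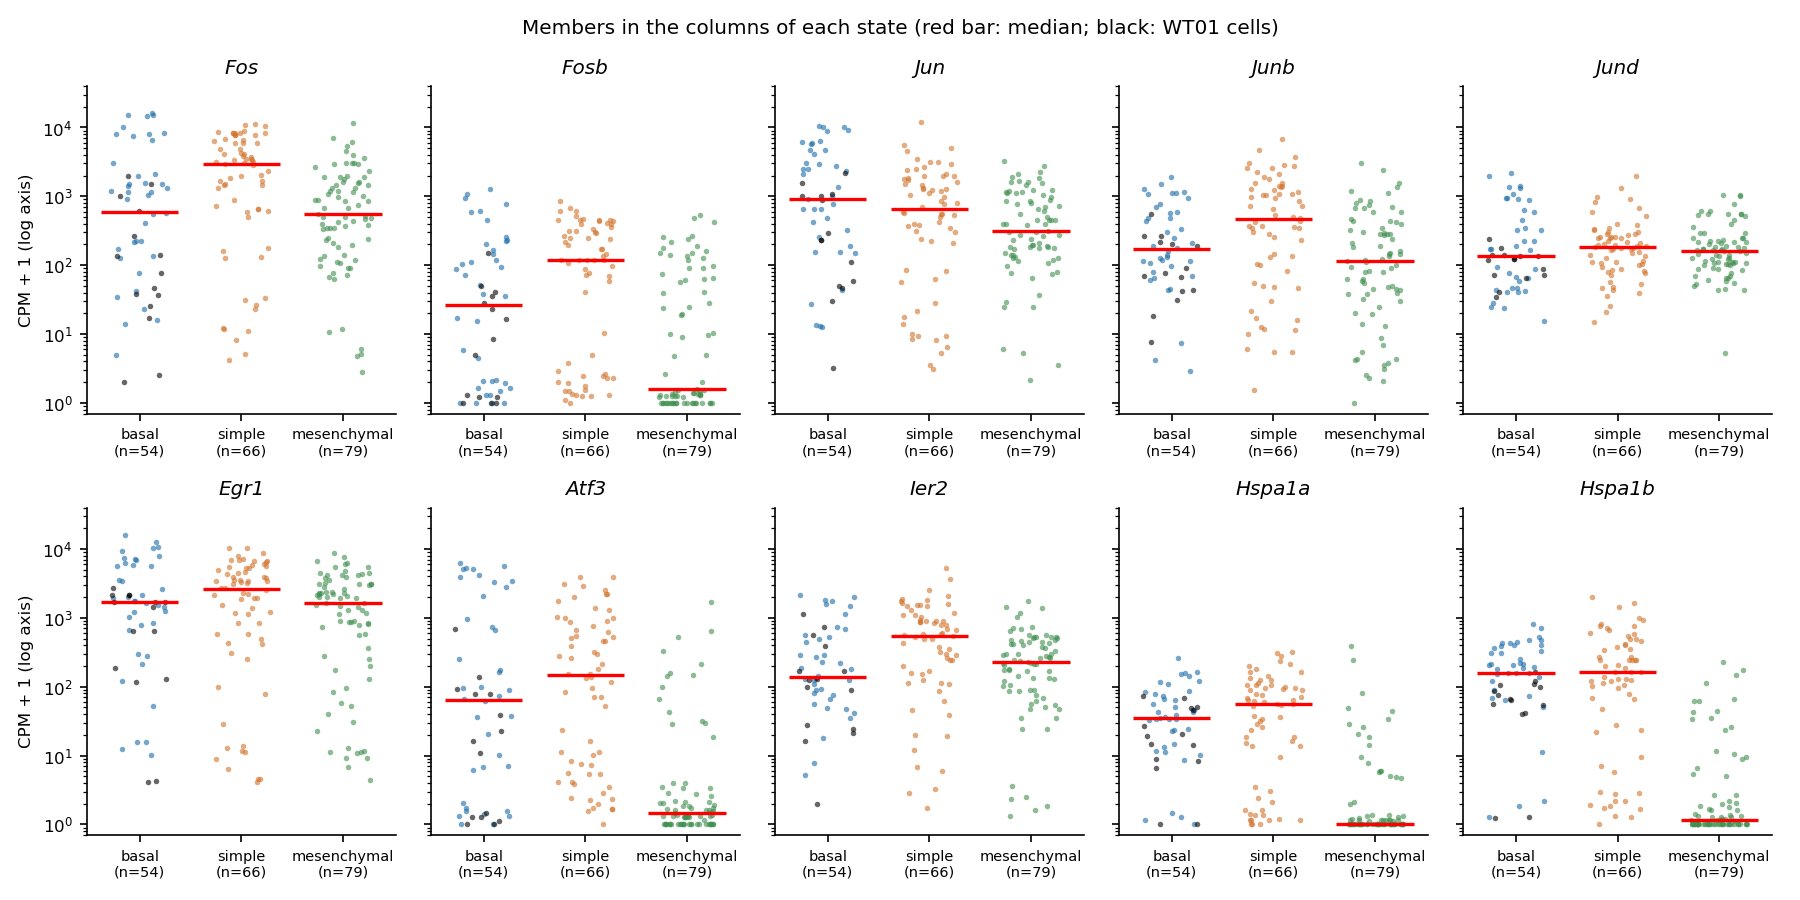
CPM + 1 (log axis) of each member in the basal (n = 54), simple (n = 66) and mesenchymal (n = 79) columns, 1 point per column, with the 15 basal WT01 cells in black; red bars are medians. Fos, Jun, Egr1, Junb, Jund and Ier2 are present in nearly all mesenchymal columns, while Hspa1a, Hspa1b, Atf3 and Fosb sit at or near 0 in most of them.

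Fosb had medians of 24.99 CPM in basal, 119.6 in simple and 0.5982 in mesenchymal columns, and 26.6% of mesenchymal columns had no count of it. Jun was highest in basal columns, with a median of 900.6 CPM against 642.6 in simple and 313 in mesenchymal ones. Junb, which can oppose Jun, was highest in the simple columns at a median of 465.2 CPM, against 168.3 in basal and 113.7 in mesenchymal columns. Jund again varied least, with medians of 135.1, 180.7 and 160 CPM in basal, simple and mesenchymal columns. Its SD over columns, on the log2(CPM + 1) scale, was 1.84, 1.39 and 1.26, and 31.4%, 4.45% and 14.7% of genes at 10 CPM or more had a lower one.

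Egr1 was high in all 3 states, with medians of 1678, 2607 and 1632 CPM in basal, simple and mesenchymal columns. Ier2 had medians of 135.8, 551.6 and 224.2 CPM. Atf3 was the member with the widest spread in the epithelial states, from 0 to 6179 CPM in basal columns. Its SD of 4.31 there ranked 3 of 9665 genes, with Fosb at 3.41 and Fos at 3.40, against a median gene at 2.24. Its medians were 63.47 CPM in basal, 144.3 in simple and 0.4673 in mesenchymal columns, and only 15 of 79 mesenchymal columns reached 10 CPM. Most mesenchymal columns thus held Fos, Egr1 and Ier2 with little Atf3.

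The HSP70 pair was mostly present in epithelial columns and mostly near 0 in mesenchymal ones. Hspa1b had medians of 156.7 CPM in basal, 161.9 in simple and 0.1645 in mesenchymal columns, and Hspa1a medians of 33.55, 54.44 and 0. Summed, they reached 10 CPM in 49 of 54 basal and 51 of 66 simple columns but in 19 of 79 mesenchymal columns. In mesenchymal columns 41.8% had no count of either gene, which at their totals allows 0.3049 to 1.11 CPM per gene (3 counts). The other mesenchymal columns were not uniformly low, since the 4 highest sums were 615.7, 387.5, 196.9 and 123.9 CPM. None of the 19 mesenchymal columns with the pair held a keratin of the rules (Krt5, Krt14, Krt8 or Krt18) at 100 CPM, which 1 of the 79 did.

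Many mesenchymal columns held Fos without the pair. Of 66 mesenchymal columns with Fos at 100 CPM or more, 49 had a summed pair under 10 CPM. The same held for 2 of 39 such basal columns and 12 of 56 such simple columns. Over all columns of a state, whatever their Fos, a sum under 10 CPM was found in 60 of 79 mesenchymal, 5 of 54 basal and 15 of 66 simple columns. Mesenchymal columns with Fos thus lacked the pair about as often as all mesenchymal columns did. Counted from the pair, 49 of 60 mesenchymal, 12 of 15 simple and 2 of 5 basal columns with a sum under 10 CPM had Fos at 100 or more. Over all columns, 66 of 79 mesenchymal, 56 of 66 simple and 39 of 54 basal columns did. In the other direction, 12 basal, 7 simple and 2 mesenchymal columns had the pair at 10 CPM or more with Fos under 100.

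**Figure D3:**
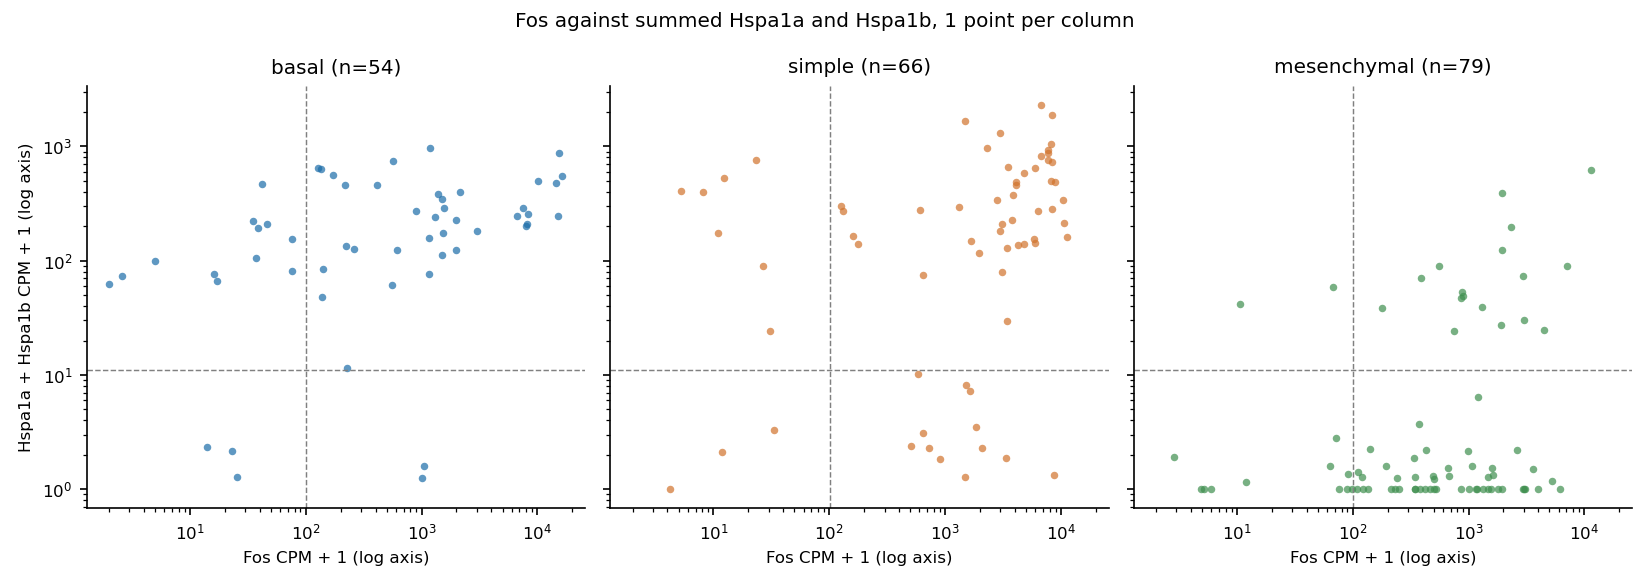
Fos (x axis) against the sum of Hspa1a and Hspa1b (y axis), both as CPM + 1 on log axes, 1 point per column, in 1 panel per state; dashed lines mark 100 CPM of Fos and 10 CPM of the sum. Mesenchymal points gather at the lower right, where 49 columns have Fos but little of the pair, and basal points mostly lie above the horizontal line (49 of 54).

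Among other chaperones, the constitutive Hspa8 had medians of 3308, 2089 and 2428 CPM in basal, simple and mesenchymal columns, and Hsf1, the heat-shock factor, 99.21, 106.5 and 61.3. Of 19 other chaperone and heat-shock genes, 4 were at least 2-fold higher and 5 lower in mesenchymal than in basal columns, with a median log2 ratio of -0.71. These shares, 21.1% and 26.3%, stand beside 17.4% and 17.9% of all genes. The largest ratios were 4.35 for Cryab, a small heat-shock protein, 3.63 for Hspa2 and 1.94 for Hspa13, and the smallest -2.18 for Hspb1 and -2.17 for Hspb8, also small heat-shock proteins, and -1.86 for Dnajb1, an HSP70 co-chaperone known to be induced with it. Against simple columns, 2 were higher and 4 lower in mesenchymal columns, beside 17.5% and 23.5% of all genes, and between simple and basal columns 3 were higher and 1 lower, beside 17.6% and 12%. Counts of this size are near those shares and show nothing particular to the list.

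Between the mesenchymal and basal states, 5 of 10 members were at least 2-fold lower in mean CPM + 1 and none was higher, against 17.9% lower and 17.4% higher among 16269 genes. The log2 ratios were -4.15 for Atf3 (52.85 against 957.9 CPM), -3.77 for Hspa1b (13.96 against 203.2), -1.90 for Hspa1a (12.5 against 49.33), -1.85 for Jun (624.2 against 2256) and -1.35 for Fosb (57.98 against 148.8). Fos stood at -0.97, and the median gene at -0.20. Atf3, Jun, Hspa1a and Hspa1b were past 2-fold in 10 of 10 alternative settings and Fosb in 9 of 10. Some of these, such as fractional counts or no minimum mean CPM, left the ratios as they were. Means here rest on few columns. The 8 highest of 79 mesenchymal columns held 91.8% of the Atf3, 90.1% of the Hspa1a and 80.1% of the Hspa1b.

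Against the simple state, 8 of 10 members were at least 2-fold lower in mesenchymal columns, where 23.5% of genes were lower and 17.5% higher. Jund (-0.18) and Egr1 (-0.56) were the exceptions, and the ratios of the other 8 ran from -4.35 for Hspa1b to -1.04 for Jun. Jun came inside 2-fold, at -0.92, with the state thresholds halved.

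Between simple and basal columns, by means scaled to totals, only Junb was at least 2-fold higher in simple columns, at a log2 ratio of 1.43 (962.7 against 355.5 CPM), where 17.6% of genes were higher and 12% lower, and no member was 2-fold lower. Junb was past 2-fold in 11 of 11 alternative settings, of which fractional counts and no minimum mean CPM left it at 1.43. For other members the answer depended on the average and the scaling. By column medians 5 members were at least 2-fold higher in simple columns, and with size factors 6, while 5 and 4 were lower in mesenchymal than in basal columns under the same settings. By means, Fos was 1.38 times as high in simple as in basal columns and by medians 5.04 times, because 6 of the 54 basal columns held 57.5% of basal Fos. Atf3 had a lower mean in simple columns (log2 ratio -0.67) and a higher median (1.17). With size factors in place of totals the median gene moved from 0.05 to 0.52 in this comparison, and from -0.20 to 0.17 between mesenchymal and basal columns. The genes past 2-fold then split into 6308 higher and 1335 lower in place of 2863 and 1956, and into 4170 higher and 1722 lower in place of 2837 and 2911. Jun and Jund then changed sign between simple and basal columns, from -0.81 to 1.64 and from -0.45 to 2.34, and Egr1 went from 0.04 to 2.08. Between mesenchymal and basal columns Junb and Ier2 changed sign, from -0.17 to 0.32 and from -0.35 to 0.18. With size factors Jund (-2.44) and Egr1 (-2.09) were also past 2-fold between mesenchymal and simple columns, where 5704 genes were lower and 3286 higher. Fosb (-0.78) came inside 2-fold between mesenchymal and basal columns with the same scaling. By medians Jund was higher in simple than in basal columns (0.42) and in mesenchymal than in basal columns (0.24), as was Ier2 in the latter (0.72).

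**Figure D4:**
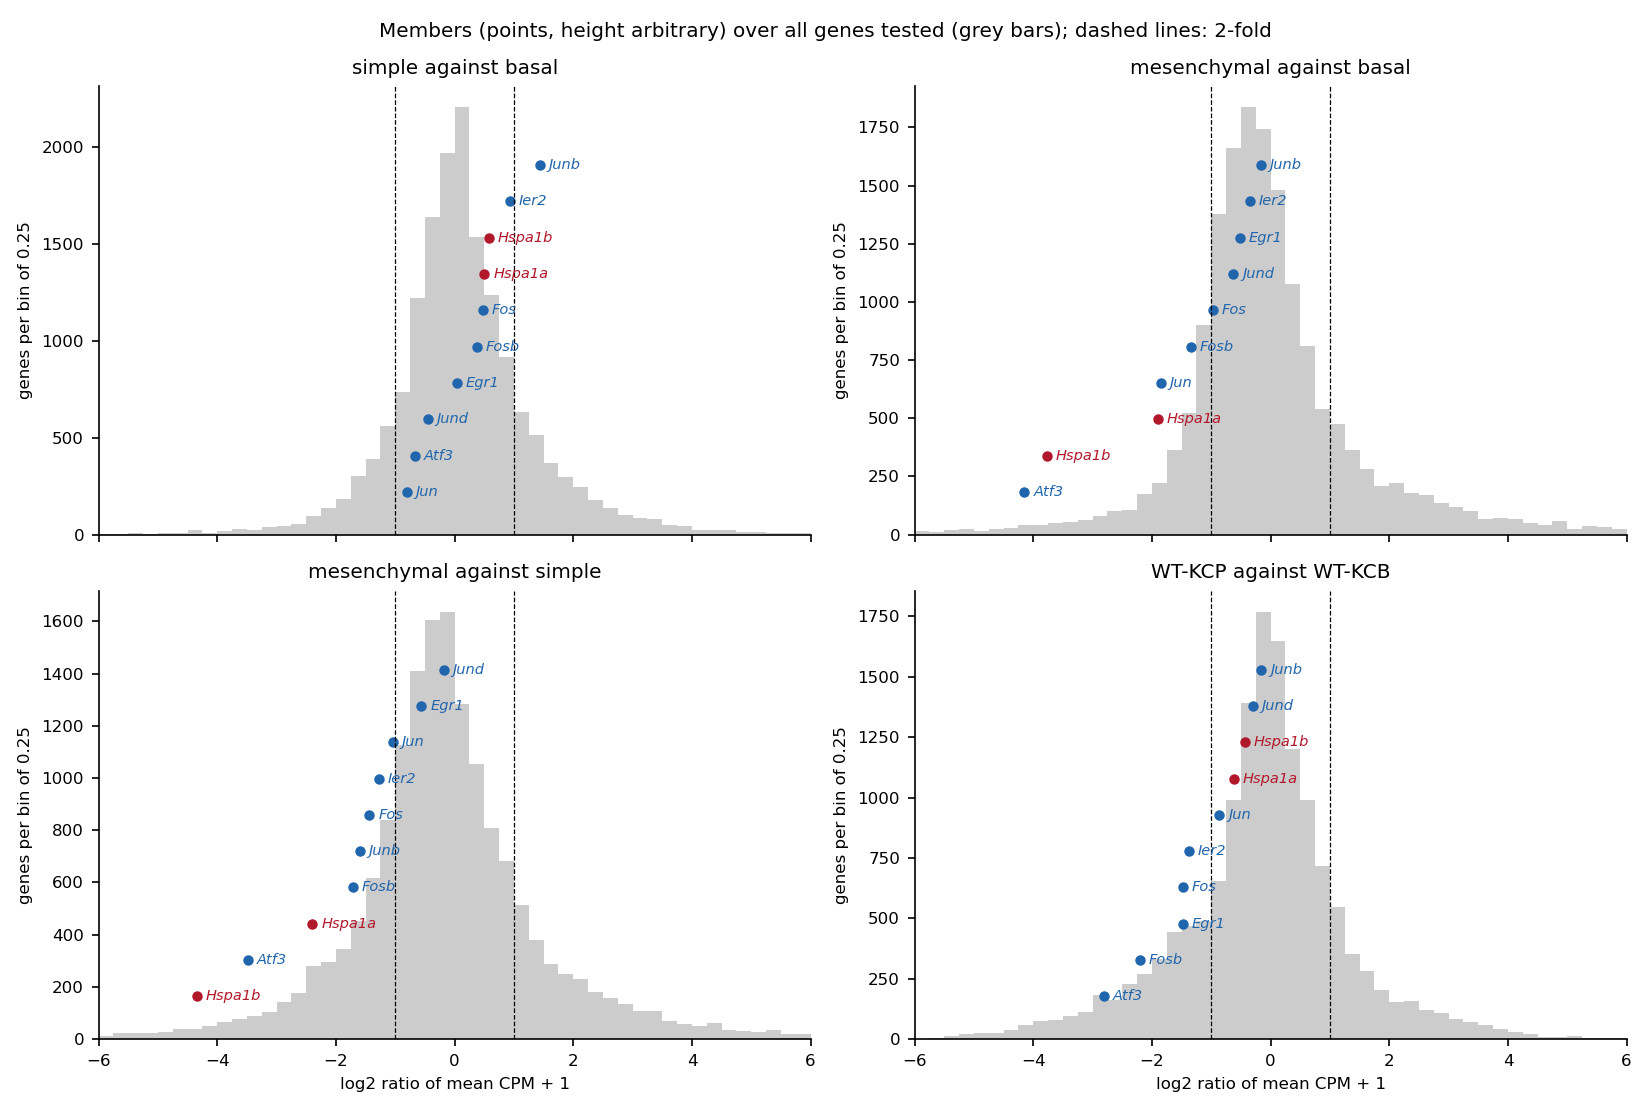
Log2 ratios of mean CPM + 1 in 4 comparisons, with all genes tested as grey bars (y axis, genes per bin of 0.25) and the members as points whose height carries no value (blue, immediate-early; red, heat-shock); dashed lines mark 2-fold. The members spread around the centre between simple and basal columns, with Junb alone past 2-fold. Most lie to the left in the other 3 comparisons, where none is past 2-fold on the higher side. Junb (mesenchymal against basal) and Jund (mesenchymal against simple) lie near the centre of all genes.

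The basal state itself was not uniform. The 15 basal WT01 cells had a Fos median of 75.45 CPM (1.017 to 1999), and the 39 basal columns that could not be tied to a cell a median of 1153 (3.986 to 16441). For Atf3 the medians were 15.36 and 86.98 CPM, for Junb 75.98 and 189.6, for Hspa1b 64.61 and 206.1, and for Egr1 1437 and 1746. The ranges overlap for every member. The other columns have no label, so these values are set side by side without a ratio. Embryo, genotype, experiment and digestion cannot be told apart. Without the WT01 cells, Jun and Atf3 were at least 2-fold lower in simple than in basal columns (log2 ratios -1.17 and -1.11) and Fos was past 2-fold between mesenchymal and basal columns (-1.38). Fosb (-0.03) and Egr1 (-0.27) then changed sign between simple and basal columns.

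Levels of different members were compared per kilobase of exon. In basal columns the order of median CPM per kilobase was Egr1 (374.2), Jun (282.4), Fos (251.6), Ier2 (89.23), Jund (80.97), Junb (73.16), Hspa1b (55.91), Atf3 (29.47), Hspa1a (11.31) and Fosb (4.003). In simple columns Fos led with 1271, followed by Egr1 with 581.5 and Ier2 with 362.4. In mesenchymal columns the order was led by Egr1 (363.9), Fos (235.6) and Ier2 (147.3). Every pair of neighbours overlapped in its range, and the quartile ranges overlapped as well, except between Junb (49.43) and Atf3 (0.217) in mesenchymal columns. By mean CPM per kilobase, Fos ranked 22, 15 and 52 among 55154 genes in basal, simple and mesenchymal columns.

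The members varied together within states. Over the 28 pairs of immediate-early members, the median Spearman rho across columns was 0.73 in basal (0.49 to 0.85, n = 54), 0.68 in simple (0.39 to 0.87, n = 66) and 0.43 in mesenchymal columns (0.13 to 0.79, n = 79). Fos and Fosb made the closest pair in the epithelial states, at 0.85 and 0.87, and Fos and Egr1 in the mesenchymal state, at 0.79. In the mesenchymal state Atf3 had low values, at 0.20 with Fos and 0.13 with Egr1. Its median there was 0.4673 CPM and 31.6% of the columns had no count of it. Many of its ranks are thus tied or rest on few counts, which limits what a low rho can show. Within WT01 the median of the 28 pairs was 0.53 (0.15 to 0.78) over 15 basal cells, 11 WT-KCB and 4 WT-KCP. Positive rho was thus also seen among cells of 1 embryo. Differences between WT-KCB and WT-KCP enter these values, the cells are few, and no value over all genes was taken there. Columns share depth and scaling, and genes of a column are not independent. The median rho of Fos with all genes at 10 CPM or more was near 0 (0.00, 0.05 and -0.02) and its 95th percentile 0.27, 0.30 and 0.23.

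**Figure D5:**
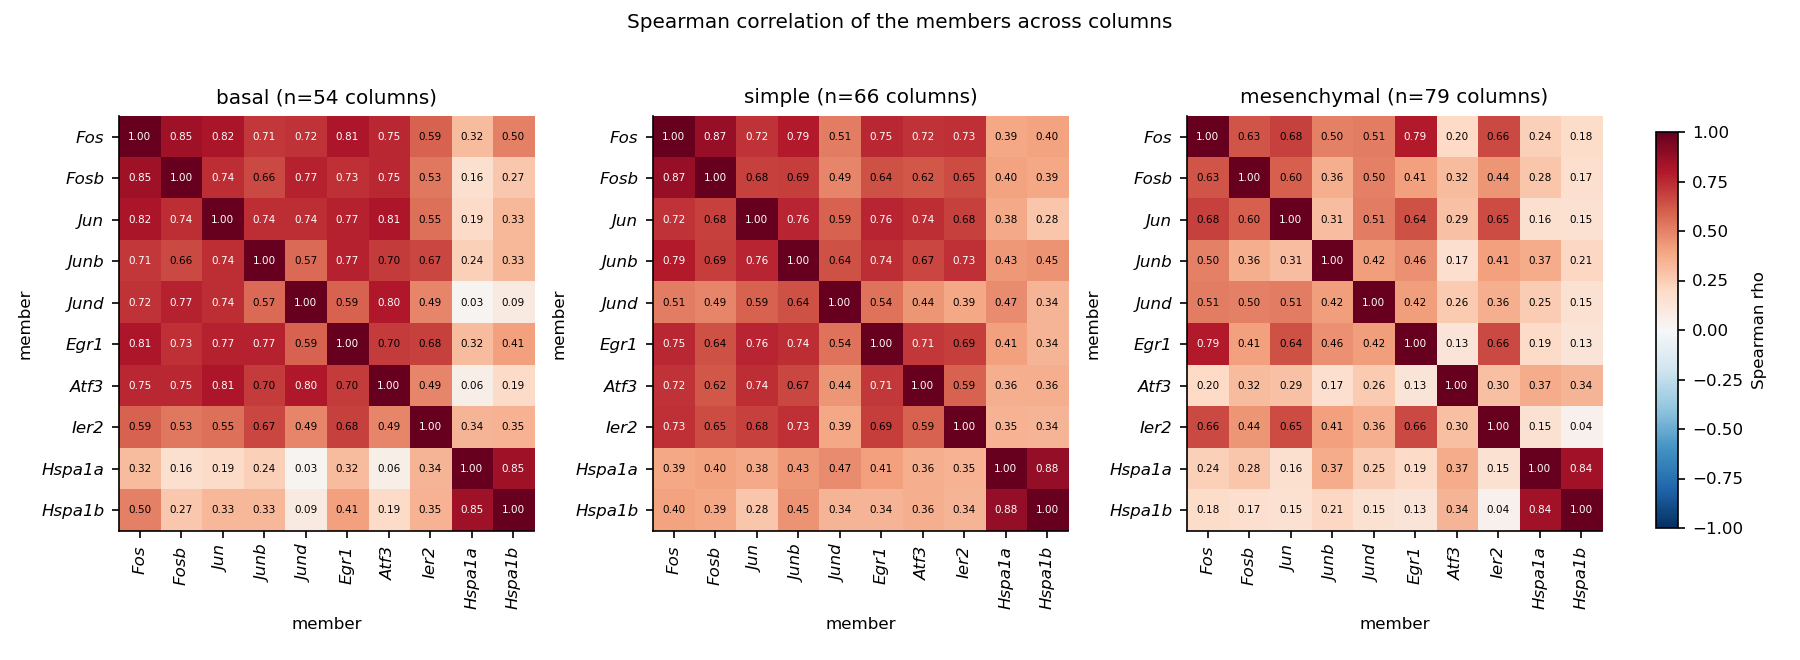
Spearman rho between members across the columns of each state (axes: members; color: rho from -1 to 1; the number in each cell is rho). The block of 8 immediate-early members is dense in basal and simple columns and looser in mesenchymal ones, and Hspa1a and Hspa1b form a block of their own at 0.85, 0.88 and 0.84.

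Hspa1a and Hspa1b correlated with each other at 0.85 in basal, 0.88 in simple and 0.84 in mesenchymal columns, a value that the split of shared reads enters. Their 16 pairs with immediate-early members were weaker, with medians of 0.30, 0.39 and 0.19, and a median of 0.00 among the WT01 basal cells. In mesenchymal columns 51.9% had no count of Hspa1a and 45.6% none of Hspa1b, so ranks there hold many ties. The highest of the 16 in basal columns was 0.50, for Hspa1b with Fos. The median rho of Hspa1b with all genes at 10 CPM or more was -0.01, 0.05 and 0.00 in basal, simple and mesenchymal columns. Its 95th percentile was 0.29, 0.29 and 0.18, so the medians of the 16 pairs, though weaker, lay above most genes. The 2 groups thus followed each other less closely than each followed itself.

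The genes most like Fos over basal columns, of 9664 with a mean of 10 CPM or more, were Fosb (0.85), Jun (0.82), Egr1 (0.81), Atf3 (0.75), Jund (0.72), Ppp1r15a (0.72), Dusp1 (0.72), Junb (0.71), Klf6 (0.69) and Zfp36 (0.65). Of these 10, 6 are members, and the rest include Dusp1, a MAP kinase phosphatase, and Zfp36, which promotes decay of unstable mRNA. In simple columns 6 of the top 10 were members, and in mesenchymal columns 4, beside Junos, whose exons overlap Jun. For Hspa1b in basal columns Hspa1a came first at 0.85, and genes further down included Cebpa (0.57), Klf5 (0.56), Notch3 (0.54), Actn4 (0.54), Ocln (0.53), Lhfpl1 (0.53), Eif2ak3 (0.53) and Cad (0.53). Fos ranked 19 in that list.

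The immediate-early signal went with depth most closely in the basal state. The summed CPM of the 8 members correlated with the column total at 0.56 over basal columns, and at -0.19 in simple, -0.25 in mesenchymal and 0.10 in the WT01 basal columns. The summed pair correlated with the total at -0.02, 0.06 and 0.18 in basal, simple and mesenchymal columns. With the share of counts in 3 genes rich in rRNA reads it correlated at -0.50 in basal columns. The same rho was -0.06 in simple, -0.14 in mesenchymal and 0.07 in the WT01 basal columns. The median share was 1.134% in the WT01 basal cells and 0.3239% in the other basal columns. The part of depth in these levels was not tested. Thinning each column to 500000 counts left the number of members past 2-fold as it was in the 3 comparisons of states. It cannot decide the question, because random thinning keeps each gene's expected share of its column.

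Counting members at 100 CPM or more per column gave the range of responses in 1 number. All 8 immediate-early members reached it in 12 of 54 basal, 24 of 66 simple and 5 of 79 mesenchymal columns, and none did in 5, 2 and 1. The median column held 5, 7 and 5. Of the WT01 basal cells, none had all 8, 2 had 7, and 2 had none.

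Beside the members, 27 other immediate-early genes were read. Between mesenchymal and basal columns 7 were at least 2-fold higher and 9 lower, with a median log2 ratio of -0.47. These are 25.9% and 33.3% of the list, beside 17.4% and 17.9% of all genes. Socs3 (3.11), Rhob (2.88) and Ccn1 (2.69), a secreted matrix protein, were highest, and Fosl1 (-3.52), Trib1 (-2.67) and Nfkbia (-1.98), the NF-κB inhibitor, lowest. Between simple and basal columns 6 were higher and 3 lower (22.2% and 11.1%, beside 17.6% and 12%), led by Socs3 (3.12), Ier3 (2.41) and Rhob (2.18) on 1 side and Ccn2 (-2.83), Fosl1 (-1.78) and Myc (-1.24) on the other. Against simple columns, 4 were higher and 11 lower in mesenchymal ones (14.8% and 40.7%, beside 17.5% and 23.5%). In WT-KCP 13 of 24 genes that passed the minimum were lower than in WT-KCB and 3 higher (54.2% and 12.5%, beside 21.2% and 15.4%), from -4.68 for Ccn1, -2.88 for Nfkbiz and -2.63 for Maff to 1.08 for Klf4, 1.84 for Ier5 and 2.23 for Trib1.

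Of 9 upstream regulators that passed the minimum, among them Srf, the Elk factors, Creb1, the MRTF coactivators and Hsf1, only Elk3 was at least 2-fold higher in mesenchymal than in basal columns (4.80) and only Mrtfa lower (-1.20). Of 5 genes of the integrated stress response, Herpud1 was higher (1.14) and Sesn2 (-2.99) and Asns (-1.20) were lower. Of 8 housekeeping genes, Gapdh (-1.14) and Hprt (-1.17) were at least 2-fold lower in mesenchymal columns, and Actb stood at 0.15. With 17.4% of all genes higher and 17.9% lower, counts this small in lists this short cannot be told from the background.

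A few columns held other markers. One simple column had 40.1% of its counts in Hba-a1 and Hbb-bt, although TER119-positive cells were sorted out, with Fos at 506.5 CPM, Jun at 12.97 and Hspa1b at 1.174, and leaving it out changed no count of members. Columns of no state with the highest melanocyte, muscle and neural marker sums (11314, 8322 and 657.2 CPM) had Fos at 6.833, 2.203 and 29.58 CPM. Ptprc, which encodes CD45, was at 0 in every basal, simple and mesenchymal column. Mesenchyme markers summed to medians of 502.7, 795.8 and 72151 CPM in basal, simple and mesenchymal columns, basal keratinocyte markers to 14247, 415.7 and 3.271, and cycling markers to 1115, 3.401 and 100.6. Pdgfra, which encodes CD140a, had a median of 256.5 CPM in the mesenchymal columns, although cells were sorted as negative for it. The methods also report no significant Pdgfra amplification in the qPCR screen. The part of these differences in the members' levels was not tested.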

How the data were processed

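From SMART-Seq HT libraries, the authors trimmed the reads with Trimmomatic, mapped them to mm10 with HISAT2, counted them with featureCounts on an Ensembl annotation and deposited estimated counts per gene, 1 column per cell, without normalization. Of the values above 0, 23.23% carried a fraction, and all were rounded to whole numbers. CPM was the rounded count divided by the column total. Columns were tied to cells only where the study's normalized table pairs a run with a cell. Since cells of 1 embryo or of an unknown embryo are not replicates, no test between groups was run, and only Dixon's ratio was taken over the 4 WT-KCP cells. Ratios are log2 of mean CPM + 1 for genes with a mean of 1 CPM or more, past a threshold of 2-fold. Symbols came from GENCODE M21 (55154 of 55335 IDs), and 4 older symbols in the lists were updated through RefSeq. Ddit3 has 2 IDs and was left out. The members, lists and states were chosen with earlier results of these data known. All members are named, and for the lists the 3 largest and smallest ratios, with genes among the 10 most like Fos and Hspa1b by Spearman rho in basal columns; not all of these are reported here. Other genes and single columns were named after their values were seen. Totals per column set the precision, and 3 counts correspond to 0.1563 to 1.11 CPM. The steps were tested on simulated data. Calculations ran in Python 3.11.15 (pandas 2.3.3, numpy 2.4.6, scipy 1.17.1), and plots were drawn with matplotlib 3.10.9.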

Additional observations from a re-analysis of the deposited data

Results flagged for a closer look

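In the 4 WT-KCP cells, 1 cell lay far above the other 3 for 4 of the 10 members, by the ratio of its gap to the whole range. Fos reached 614.1 CPM in that cell against 36.28 in the next, and Fosb 22.45 against 0.285, in the same cell. Egr1 reached 1669 CPM against 187.2 and Ier2 384.2 against 26.54, both in another cell, WT-KCP cell 3. The limit used flags about 1 in 20 such groups by chance where values are normally spread. CPM in these cells spanned orders of magnitude, so the rate here is not known, and the members are not independent of each other.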

How the results depend on the processing

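With the median of the columns in place of the mean, 709 genes were at least 2-fold higher and 3796 lower in simple than in basal columns, with 5 members higher, 1657 genes were higher in mesenchymal than in basal columns, and 1791 were lower in mesenchymal than in simple columns. With size factors, which rest on 917 genes above 0 in all columns, 6308 genes and 6 members were higher in simple than in basal columns, and 1722 genes were lower in mesenchymal than in basal columns. Without the WT01 cells, a setting chosen after seeing the data, 2 members were lower in simple than in basal columns. Over the cells left out in turn, the count of members lower in WT-KCP ran from 4 to 7, with none higher, and genes ran from 2996 to 3779 lower and from 2240 to 2415 higher. Of 924 recomputed values, some under settings such as fractional counts that could hardly move them, 883 stayed within their limits. Another 41 moved, and none of those past 2-fold changed sign. The causes were not tested. No column had under 1000000 counts, so leaving such columns out removed nothing. No paired analysis was possible because the labelled cells come from 1 embryo and no test between groups was run. The 15 labelled cells compared and the unknown origin of the other columns limit what these values can show.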
